A study of Mus musculus with 6 samples.

Results

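The 41 genes described here encode the enzymes of glycolysis, gluconeogenesis and fructose entry, together with the kinases and phosphatases that control them. They were taken by symbol from 23366 genes counted by RNA-sequencing in EpCAM+ epithelial cells of the mouse small intestine at E13.5, and 39 of them had counts and were tested. EpCAM is a surface protein of epithelial cells, and 500 living cells were sorted for each library. The mutant group of 3 libraries has the genotype Shh-cre-egfp:Tcf7l1 lox/lox, in which Cre expressed from the Shh locus deletes a floxed exon of Tcf7l1, a transcription factor of the TCF/LEF family that acts in WNT signalling. The other 3 libraries are labelled wild type with no further detail, and no library was described as carrying Cre with Tcf7l1 intact. The groups also differed in sex. Xist, the RNA of the inactive X chromosome, was absent from the counts of the wild type group, at 0 in each library, and had 229, 424 and 289 counts in the mutants, while Y-linked Ddx3y had 2254, 2038 and 1837 counts in wild type replicates 1, 2 and 3 and 0 in every mutant library. Deletion of Tcf7l1, the Cre insertion and sex thus cannot be told apart in any comparison below.

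Glycolysis splits glucose into pyruvate, which is either reduced to lactate by lactate dehydrogenase or passed to the mitochondria through pyruvate dehydrogenase. Some of its steps are practically irreversible and serve as control points, namely those of hexokinase, phosphofructokinase and pyruvate kinase. Gluconeogenesis runs the path backwards with its own enzymes at these points. Many steps have several isozymes, encoded by separate genes and used in different tissues. The intestinal epithelium is known for fructose breakdown that starts with ketohexokinase, and for using the liver-type enzymes of several steps once it has matured.

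The start regions of the genes with the clearest differences are shown first, since Tcf7l1 binds DNA and several glycolytic genes are known targets of hypoxia factors. Windows from 250 bases before to 50 bases after each RefSeq start (build GRCm38.p6) were searched on both strands for ATCAAAG, the core bound by TCF/LEF factors, for ACGTG or GCGTG, the core of the hypoxia response element, and for CACGTG, the E-box. A CACGTG holds ACGTG on both strands and counts 2 times there. All 41 genes had at least 1 window, 60 in all, and windows of the same gene can overlap. The 250 bases before the start are printed for the second start of Pklr at chr3:89136373-89136622 on the plus strand, for Pfkp at chr13:6648772-6649021 on the minus strand, for the second start of Hk1 at chr10:62340422-62340671 on the minus strand, for the first start of Ldha at chr7:46845554-46845803 on the plus strand and for Ldhb at chr6:142507958-142508207 on the minus strand. The first 3 and Ldhb are called genes, and Ldha stands beside Ldhb as its partner isozyme. Capitals mark the letters of the searched motifs, and a motif that runs past the start is cut there.
Pklr: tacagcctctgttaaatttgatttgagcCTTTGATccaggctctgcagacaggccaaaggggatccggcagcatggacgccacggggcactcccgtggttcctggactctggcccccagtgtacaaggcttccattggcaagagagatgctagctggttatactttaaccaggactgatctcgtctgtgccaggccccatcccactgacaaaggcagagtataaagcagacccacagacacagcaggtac
Pfkp: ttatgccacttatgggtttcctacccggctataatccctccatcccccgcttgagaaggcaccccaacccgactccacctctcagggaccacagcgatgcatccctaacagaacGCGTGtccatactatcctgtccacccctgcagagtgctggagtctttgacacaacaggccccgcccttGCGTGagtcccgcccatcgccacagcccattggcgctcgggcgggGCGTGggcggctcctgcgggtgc
Hk1: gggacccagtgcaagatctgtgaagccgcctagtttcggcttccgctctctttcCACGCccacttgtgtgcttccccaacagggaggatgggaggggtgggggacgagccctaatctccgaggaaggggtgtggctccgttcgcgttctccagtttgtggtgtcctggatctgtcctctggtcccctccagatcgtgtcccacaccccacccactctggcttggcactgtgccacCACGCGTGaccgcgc
Ldha: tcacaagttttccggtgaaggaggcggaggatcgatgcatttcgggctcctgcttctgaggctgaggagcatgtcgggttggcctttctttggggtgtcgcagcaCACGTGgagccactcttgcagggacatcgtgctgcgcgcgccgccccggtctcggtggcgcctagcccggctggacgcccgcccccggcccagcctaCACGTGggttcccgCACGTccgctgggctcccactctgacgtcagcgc
Ldhb: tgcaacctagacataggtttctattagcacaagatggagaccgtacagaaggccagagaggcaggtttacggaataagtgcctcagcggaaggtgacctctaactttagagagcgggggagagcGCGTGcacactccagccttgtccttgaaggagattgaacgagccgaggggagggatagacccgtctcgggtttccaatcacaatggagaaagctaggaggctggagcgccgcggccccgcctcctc

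The TCF/LEF letters were found in the second Pklr window, 222 bases before the start and on the opposite strand, and in the G6pc window, which makes 2 of 60 member windows (3.33%) beside 3.73% of all 32851 windows. The hypoxia core occurred in 41 of 60 member windows (68.3%) and in 43.8% of all windows. The E-box occurred in 8 member windows (13.3%) beside 7.15% of all. Both of these motifs hold a CG, and the median GC content was 57.3% in member windows and 52.7% in all, so base composition moved with these shares, and its part was not tested. Pfkp, the second Hk1 window and the first Ldha window held the hypoxia core several times, whereas Ldhb held it once, 126 bases before its start. The first Hk1 window and windows 1 and 2 of Pklr held it 0 times. In Pfkm, a called gene that is not printed, windows 1, 2 and 3 held it and window 4 did not. The printed windows are thus a selection, and the called genes differed in this motif. These are matches of letters and not measured binding.

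The libraries had 18216537 to 20397278 counts. Tcf7l1 had 476, 474 and 364 normalized counts in wild type replicates 1, 2 and 3 and 41.4, 33.0 and 73.0 in mutant replicates 1, 2 and 3 (log2 fold change -3.16 ± 0.26 SE, adjusted p = 4.18e-07, quasi-likelihood test of edgeR, adjusted by Benjamini-Hochberg over the 12501 tested genes). Shh, at whose locus Cre is inserted, was at 481 ± 65.8 (SD, n = 3) in the wild type group and 198 ± 22.6 among the mutants. All 12 epithelial markers had counts, and Epcam reached 47961 to 64099.5 normalized counts. Of these 12 markers 3 (Cdh1, Krt18 and Cdx2) were called lower and 0 higher, beside 5.83% and 2.78% of all tested genes. Every mutant library lay above every wild type library for 4 markers (Epcam, Cldn7, Cldn4 and Hnf4g) and below for 6. Over all tested genes this held for 20.8% and 22.2%. The summed markers of mesenchyme and muscle spanned 211 to 348 normalized counts in the wild type group and 154 to 829.6 among the mutants, with 0 of 7 tested genes called. Markers of blood (0 of 2 tested genes called) summed to at most 114 normalized counts in a library, and those of endothelium (0 tested) to at most 21.7. Neural crest markers (0 of 5 called) summed to 211 to 254.5 in the wild type group and 213 to 411.5 among the mutants. Among them Elavl4 had 113 to 189 normalized counts over all libraries, and Ednrb had 150 in mutant 3 and at most 18.6 elsewhere. Liver markers were mixed. Ahsg and Tat had 0 counts in every library, Alb 6 at most and Apoh 8 at most. Afp, at 2862 ± 374 normalized counts (SD, n = 3) in the wild type group and 2363 ± 138 in mutants, was not called. Ttr, at 1139 ± 142 and 1119 ± 115, was not called either. Serpina1a (582 ± 55.2 and 28.9 ± 12.9) and Serpina1b (1461 ± 146 and 226 ± 27.0) were called lower. Cps1, which the intestine also expresses, was called higher. Pdx1, shared by duodenum and pancreas, was called lower, and Ptf1a, Nkx6-1, Ins2 and Gcg had 0 counts. The part of such differences in cell makeup in the results below was not tested, and in bulk samples fewer cells of a type and less RNA per cell cannot be told apart.

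Of the 39 tested genes, 2 were upregulated and 3 downregulated in the mutants, a call being an adjusted p below 0.01 together with a log2 fold change of 0.5 or more in size and 50 or more normalized counts on average. Pklr and Pfkp rose, and Hk1, Pfkm and Ldhb fell. The same rule called 2.78% of all 12501 tested genes higher and 5.83% lower, so the shares among the members were near the background. Each of the 5 called genes belongs to a step with several isozymes, as do most of the 41 genes. Of the 5 called genes, all but Ldhb act at a control point, namely hexokinase, phosphofructokinase or pyruvate kinase. A further 4 genes, Aldoa, Pgk1, Ldha and Tpi1, had an adjusted p under 0.01 with a log2 fold change under 0.5. Without the minimum fold change, the rule called 902 of all 12501 tested genes higher and 875 lower, beside 348 and 729 with it. Every mutant library lay above every wild type library for 14 members and below for 5, whereas this held for 20.8% and 22.2% of all tested genes. The median log2 fold change was 0.09 over the tested members and -0.04 over all tested genes. Read counts on the 41 genes made up 1.34% to 1.39% of each wild type library and 1.47% to 1.51% of each mutant library.

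**Figure D1:**
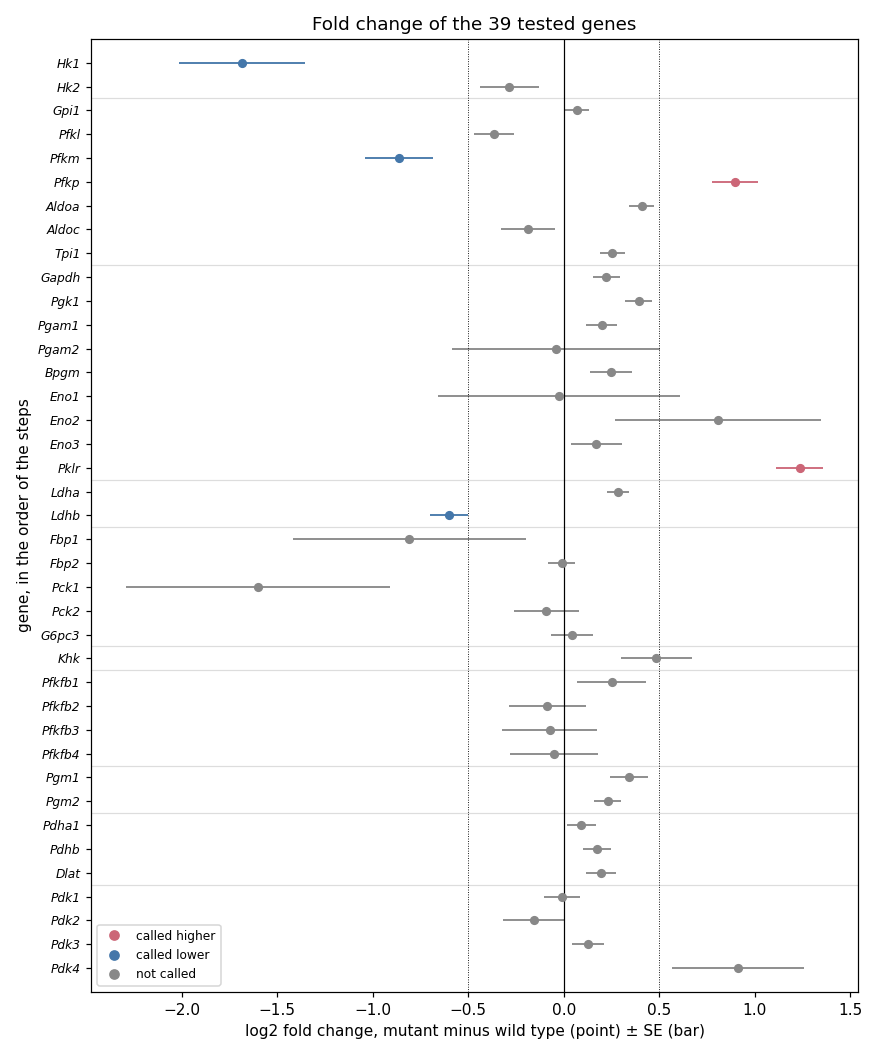
Log2 fold change, mutant minus wild type, of the 39 tested genes in the order of the steps, with the SE as bar. Dotted lines mark 0.5 in either direction, colours mark the call, and Pklr (1.23) and Hk1 (-1.68) lie farthest out among the called genes.

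Hexokinases trap glucose in the cell as glucose 6-phosphate. Hk1, the housekeeping isozyme, had 342, 218 and 122 normalized counts in wild type replicates 1, 2 and 3 and 91.1, 55.4 and 65.3 in mutant replicates 1, 2 and 3. The groups did not overlap, although the wild type libraries differed among themselves by more than the gap between wild type 3 and mutant 1. The log2 fold change was -1.68 ± 0.33 (SE), a 3.21-fold decrease with an adjusted p of 0.00154, and without wild type 1 it was -1.27 with an adjusted p of 0.0166, which ends the call. Hk2, the isozyme typical of proliferating and insulin-responsive cells, had 554, 544 and 401 normalized counts in the wild type group and 399.7, 399 and 431 among the mutants, so the groups overlapped (log2 fold change -0.28 ± 0.15, adjusted p = 0.177). Hk3 had 0 counts in all 6 libraries. Per kilobase of exon, Hk1 was 23.2% ± 6.43 (SD, n = 3) of the Hk1 and Hk2 total in the wild type group and 10.7% ± 2.65 in mutants. Hkdc1, a hexokinase-like gene adjacent to Hk1 that was not among the 41, was at 250.5 ± 80.4 and 175 ± 49.9 normalized counts and was not called (adjusted p = 0.144).

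Phosphofructokinase commits sugar to glycolysis and works as a tetramer of liver (Pfkl), muscle (Pfkm) and platelet (Pfkp) subunits. Pfkp had 911, 759.8 and 649 normalized counts in wild type replicates 1, 2 and 3 and 1504, 1387 and 1430.3 in mutant replicates 1, 2 and 3. All mutant values thus exceeded the wild type values, and the log2 fold change was 0.90 ± 0.12 (adjusted p = 6.64e-05). Pfkm went the other way, from 425, 467 and 416 to 287, 182 and 251, again without overlap (log2 fold change -0.86 ± 0.18, adjusted p = 0.00245). The call of Pfkm was lost without wild type 1 (adjusted p = 0.01001), wild type 2 (0.0142) or mutant 2 (0.0139), at log2 fold changes of -0.88, -0.81 and -0.70. Pfkl was the main subunit gene. Its 14199.5, 14536 and 10783 normalized counts in the wild type group and 11127, 8972 and 10594 among the mutants overlapped, with wild type 3 inside the mutant range, and the log2 fold change of -0.36 ± 0.10 did not pass (adjusted p = 0.0154). By per-kilobase level Pfkl made up 93.0% ± 0.598 of the 3 genes in the wild type group and 90.9% ± 0.181 in mutants, Pfkm 4.49% ± 0.576 and 3.05% ± 0.364, and Pfkp 2.56% ± 0.258 and 6.02% ± 0.468. The order of Pfkm and Pfkp in the wild type group turned with the length used. Pfkp stood below Pfkm there per kilobase of all exons (9395 bases for Pfkp), but above it with the longest transcript (4663 bases), at 4.32% against 3.98%, and without length scaling, at 5.39% against 3.07%. In mutants Pfkp stood above Pfkm by all 3 measures. Pfkp shares 3.96% of its exon bases with exons of Pitrm1 on the opposite strand, whose own log2 fold change was 0.28 (adjusted p = 0.0154), and the strand setting of the counting is not stated.

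**Figure D2:**
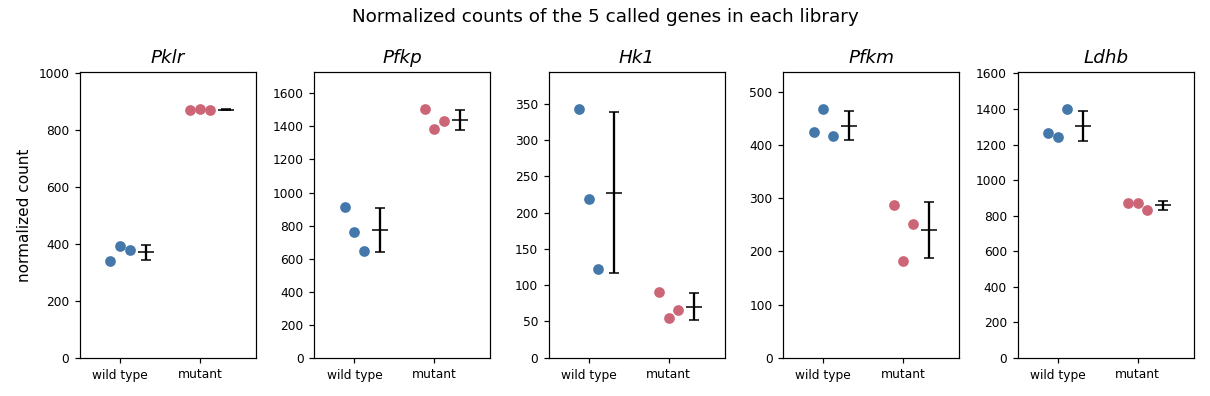
Normalized counts of Pklr, Pfkp, Hk1, Pfkm and Ldhb in each library (points), with the mean and SD of each group beside them. The groups do not overlap in any of the 5 panels, and the widest spread is that of Hk1 in wild type, 122 to 342.

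In the rest of upper glycolysis, Aldoa and Tpi1 were higher in every mutant library, by less than the size of a call. Aldolase A, which cleaves fructose 1,6-bisphosphate, had 42900.4, 40239 and 47812 normalized counts of Aldoa in the wild type group and 58813, 58014 and 56772 among the mutants. The log2 fold change of Aldoa was 0.41 ± 0.07, with an adjusted p of 0.000414. Tpi1, which interconverts the triose phosphates, had 28821, 29573 and 32752 against 36781, 36397 and 35568 (log2 fold change 0.25 ± 0.06, adjusted p = 0.00769). Gpi1, the isomerase of glucose 6-phosphate, had 13984, 13798 and 14329 against 15039, 14260.3 and 14844, and its groups overlapped (0.07 ± 0.06, adjusted p = 0.440). Aldoc, the brain-type aldolase, was at 799 ± 143 and 702 ± 91.9 (SD, n = 3) and was not called (adjusted p = 0.346).

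Lower glycolysis leads from glyceraldehyde 3-phosphate to pyruvate, and its abundant genes Gapdh, Pgk1 and Pgam1 had higher values in the mutants without being called. Gapdh had 27442, 29018 and 33150.2 normalized counts in the wild type group and 35028, 35026 and 34441 among the mutants (log2 fold change 0.22 ± 0.07, adjusted p = 0.0268). Pgk1, which makes the first ATP of the pathway, had 5753, 5663 and 6517 against 7854, 8045 and 7616, with a log2 fold change of 0.39 ± 0.07 and an adjusted p of 0.00107. Pgam1, a phosphoglycerate mutase, had 4098, 4312 and 5054 against 5123, 5079.7 and 5238 (0.20 ± 0.08, adjusted p = 0.0765). In all 3 genes every mutant library lay above every wild type library, by a margin that is small for Pgam1. Most 84-base stretches of their transcripts occur elsewhere in the genome, 85.3% for Gapdh, 90.8% for Pgk1 and 88.1% for Pgam1, so the values rest on the remaining parts and their per-kilobase levels leave out reads of the repeated parts. Bpgm, the bisphosphoglycerate mutase, was at 905 ± 92.0 and 1074 ± 45.6 (adjusted p = 0.101), and the muscle-type Pgam2 at 21.9 ± 4.55 and 21.4 ± 0.366 (adjusted p = 0.967). Pgk1 lies on the X chromosome, as do Pdha1, Pdk3 and Pfkfb1, and the groups differ in their number of X chromosomes.

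Enolase 1, normally the main enolase outside muscle and neurons, could not be followed under its own symbol. Eno1 had 11.3, 18.6 and 12.4 normalized counts in the wild type group and 15.5, 17.0 and 8.85 among the mutants, although 63.0% of its 84-base stretches recur elsewhere and the rest do not. Of all its stretches, 62.2% recur in Gm5506, a processed copy that is itself listed in the count tables. Gm5506 had 2629, 2518 and 2684 normalized counts in the wild type group and 5561, 5162 and 5338 among the mutants, a log2 fold change of 1.04 ± 0.07 (adjusted p = 5.06e-08) that was called higher. Which of the 2 loci these reads came from was not tested, and 84.6% of the stretches of Gm5506 recur elsewhere too. Eno3, the muscle-type enolase, had 725, 599 and 608 against 655, 837 and 681 and was not called (0.17 ± 0.13, adjusted p = 0.366). Neuronal Eno2 was at 21.3 ± 5.85 and 37.3 ± 20.6 (SD, n = 3), with the highest value, 60.7, in mutant 2 (adjusted p = 0.282). The neural crest markers summed to 211 to 254.5 normalized counts in the wild type group and 213 to 411.5 among the mutants.

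Pklr, the pyruvate kinase of liver and red cells and also of mature enterocytes, had the smallest adjusted p of the 41 genes. Its normalized counts were 341, 392 and 377 in wild type replicates 1, 2 and 3 and 871, 873 and 869 in mutant replicates 1, 2 and 3. The mutant libraries were close to each other and far above the wild type (log2 fold change 1.23 ± 0.12, a 2.35-fold increase, adjusted p = 3.26e-06). The call held without any single library, at log2 fold changes of 1.18 to 1.28. Hcn3 shares 22.0% of the Pklr exon bases on the opposite strand and itself had 4.42 to 19.2 normalized counts. The other pyruvate kinase gene, Pkm, was not among the 41 but is the main one here. It had 46733, 45902 and 42309 normalized counts in the wild type group and 42525, 35860.0 and 40166 among the mutants, with overlap (log2 fold change -0.19 ± 0.07, adjusted p = 0.0556). Per kilobase, Pklr was 0.606% ± 0.0615 of the pyruvate kinase total in the wild type group and 1.61% ± 0.142 in mutants. Splicing between the M1 and M2 forms of Pkm cannot be read from counts per gene.

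Lactate dehydrogenase is a tetramer of A subunits, which favour the formation of lactate, and B subunits, which favour its oxidation. In uniquely mapping reads Ldha had the highest per-kilobase level of the 41 genes, although that of Gapdh leaves out reads of its repeated parts. Ldha had 68285, 72024 and 73691 normalized counts in the wild type group and 87688, 85789.8 and 86922 among the mutants. The groups did not overlap, and the log2 fold change of 0.28 ± 0.06 (adjusted p = 0.00173) stayed under the size of a call. Ldhb fell from 1265, 1244 and 1399 to 871, 873 and 829.6, without overlap (log2 fold change -0.60 ± 0.10, adjusted p = 0.000484). Leaving out each library in turn gave -0.63 to -0.53 and kept the call. Ldhb was 3.35% ± 0.158 of the per-kilobase total of the pair in the wild type group and 1.84% ± 0.0585 in mutants (SD, n = 3). In the Ldhb transcript 15.8% of 84-base stretches recur elsewhere, and 3.51% in that of Ldha.

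None of the 5 tested gluconeogenic genes was called by edgeR or DESeq2, and 1 of them, Pck1, had an unadjusted p under 0.05. Fructose bisphosphatase, which reverses the phosphofructokinase step, was represented almost wholly by Fbp2, the form named for muscle. Fbp2 had 11654, 11756 and 13022 normalized counts in the wild type group and 11887, 12922 and 11342 among the mutants, fully overlapping (log2 fold change -0.01 ± 0.07, adjusted p = 0.926). Fbp1, the liver form, had 7.45 to 23.3 normalized counts over all libraries, so that Fbp2 was 99.9% of the per-kilobase total in both groups. Pck1, the cytosolic phosphoenolpyruvate carboxykinase, had 71.3, 83.0 and 61.8 normalized counts in the wild type group and 25.9, 0 and 45.4 among the mutants. The mutant values were all lower, but with so few counts and 1 library at 0 the test did not pass (log2 fold change -1.60 ± 0.69, adjusted p = 0.0942), and the mean lay under the 50 needed for a call. The mitochondrial form Pck2 had 383, 367 and 302 against 327, 279 and 382 and overlapped (-0.09 ± 0.17, adjusted p = 0.724). G6pc, the glucose 6-phosphatase that lets liver, kidney and intestine release glucose, had 0 counts in all 6 libraries, which allows up to 3 counts in each. The ubiquitous G6pc3 had 972, 799.9 and 949 against 939, 922 and 938 (0.04 ± 0.11, adjusted p = 0.810).

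Fructose enters through ketohexokinase. Khk had 172, 172 and 162 normalized counts in the wild type group and 242, 250.3 and 215 among the mutants. The mutant values lay above all wild type values, yet the log2 fold change of 0.48 ± 0.19 did not pass (adjusted p = 0.0619). Triokinase (Dak), another enzyme of fructose breakdown, was at 135 ± 7.47 and 88.5 ± 38.0 normalized counts and was not called (adjusted p = 0.136). The carriers Slc2a5, which takes up fructose, and Slc2a2, which passes it and glucose to the blood side, varied widely within groups. Slc2a5 spanned 11.2 to 46.0 normalized counts in the wild type group and 6.39 to 58.0 in mutants, and Slc2a2 3.80 to 76.9 and 0 to 51.8, and neither was called.

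Around the pathway, the 4 Pfkfb genes encode the enzyme that makes and breaks fructose 2,6-bisphosphate, the activator of phosphofructokinase. Per kilobase Pfkfb1, the liver form, was highest, with 227, 352 and 316 normalized counts in the wild type group and 357, 389 and 319.7 among the mutants (log2 fold change 0.25 ± 0.18, adjusted p = 0.325). Pfkfb2, Pfkfb3 and Pfkfb4 averaged 384, 115 and 140.3 normalized counts in the wild type group and 362, 109 and 135 in mutants. Their log2 fold changes were -0.09, -0.07 and -0.05 with adjusted p of 0.779 or more, and none of the 4 genes was called. The phosphoglucomutases link glycolysis to glycogen. The chromosome 4 gene, listed as Pgm2 and now named Pgm1 in RefSeq, had 5677, 5769 and 5515 against 6965, 6250.0 and 6661 (0.23 ± 0.07, adjusted p = 0.0211). The chromosome 5 gene, listed as Pgm1, was at 1473 ± 79.9 and 1866 ± 212 (0.34 ± 0.10, adjusted p = 0.0167). In both genes the mutant libraries lay above the wild type libraries without a call.

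Pyruvate dehydrogenase turns pyruvate into acetyl-CoA, and its kinases switch it off. Pdhb, a subunit of its first component, was the highest of the complex by per-kilobase level, with 5054, 5093 and 5739.7 normalized counts in the wild type group and 6017, 6063 and 5826 among the mutants (log2 fold change 0.17 ± 0.07, adjusted p = 0.0830). Pdha1, the partner subunit, was at 3274 ± 107 and 3490.1 ± 201 (adjusted p = 0.381), and Dlat, the acetyltransferase, at 2798 ± 33.5 and 3206 ± 279 (adjusted p = 0.0743). Of the kinases, Pdk3 was highest per kilobase, at 2264, 2488 and 2722 normalized counts against 2619.7, 2829 and 2718, with overlap (0.13 ± 0.08, adjusted p = 0.269). Pdk1 was at 2476 ± 159 and 2462 ± 327 (SD, n = 3), and Pdk2 at 524 ± 85.3 and 469.8 ± 73.0, and neither was called (adjusted p = 0.959 and 0.497). Pdk4, the kinase induced by fasting, had 52.5, 38.2 and 78.9 normalized counts in the wild type group and 127, 71.3 and 121 among the mutants, so that mutant 2 lay inside the wild type range. Its log2 fold change of 0.91 ± 0.35 did not pass (adjusted p = 0.0587).

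Ratios between isozymes do not depend on how libraries are scaled. They were formed per library for 19 pairs of genes of the same step that both had a mean of at least 50 normalized counts. The Pfkm to Pfkp ratio had the largest difference. Its log2 values were 0.52, 0.92 and 0.98 in the wild type group and -0.77, -1.31 and -0.89 among the mutants, and the mean ratio was 1.75 and 0.504. Without length scaling the mean log2 values of this ratio were -0.81 and -2.61, so that the sign in the wild type group turned, while the difference of -1.80 ± 0.22 (SE) between groups does not depend on length. The Ldha to Ldhb ratio was 28.9 and 53.3, a difference of 0.88 ± 0.05 (SE) in log2, with a spread of 0.07 and 0.05 (SD) within the groups. For Hk1 to Hk2 the ratio was 0.295 and 0.118, a log2 difference of -1.33 ± 0.37. The Pfkl to Pfkp ratio was 36.4 and 15.1, and the log2 differences of Pfkl to Pfkm and of Aldoa to Aldoc were 0.53 ± 0.15 and 0.59 ± 0.19. Each of these pairs separated the groups completely, with an exact two-sided permutation p of 0.1, the smallest that 3 against 3 libraries allow, and 0.271 after Benjamini-Hochberg adjustment over the 19 pairs, so none passed. The log2 difference of Pfkfb1 to Pfkfb3 was 0.35 ± 0.14 with the same p of the exact test. The other 12 pairs overlapped between groups, among them all 6 pairs of Pdk genes, where Pdk1 to Pdk4 was 20.6 and 10.7 (exact permutation p = 0.2).

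**Figure D3:**
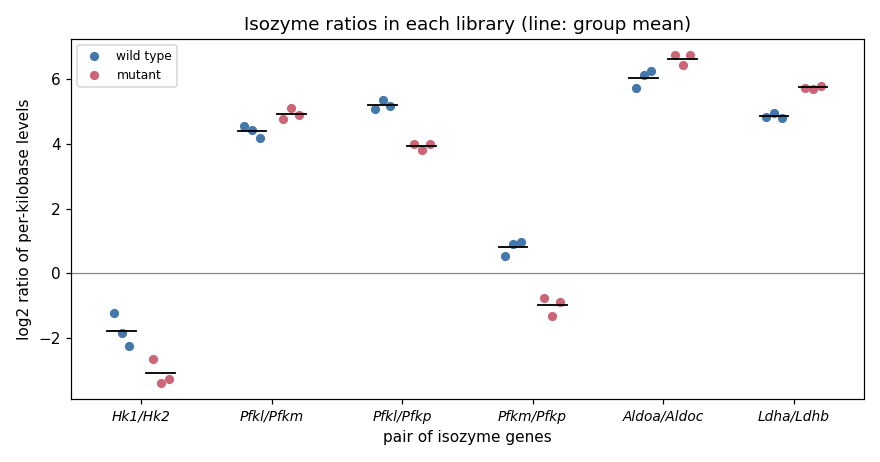
Log2 ratio of the per-kilobase levels of 6 pairs of isozyme genes in each library (points), with lines at the group means. The groups are apart in every pair shown, and the place of 0 depends on the gene lengths used: Pfkm/Pfkp averages 0.81 in wild type and -0.99 in mutants here, but -0.81 and -2.61 without length scaling.

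By per-kilobase level in wild type, Ldha (23921 ± 928 normalized counts per kilobase, SD, n = 3) stood above Aldoa (15849.8 ± 1395), Tpi1 (13754 ± 945), Gapdh (13258 ± 1308) and Fbp2 (9165 ± 575). The ranges of Aldoa, Tpi1 and Gapdh overlapped between neighbours, while those of Ldha and Aldoa and of Gapdh and Fbp2 did not. Pdhb (3566 ± 259), Gpi1 (3121 ± 59.9), Pfkl (2997 ± 472), Pgk1 (2664 ± 209) and Pgam1 (2451 ± 274) followed, with overlap between Pfkl and its neighbours. With the longest transcript as length, Gapdh (21035) stood above Tpi1 (18906) and Gpi1 (4393) above Pdhb (3566). Only uniquely mapping reads were counted, and 85.3% of the 84-base stretches of Gapdh, 90.8% of Pgk1 and 88.1% of Pgam1 recur elsewhere. The levels of these genes may thus be too low, and whether Gapdh truly stands below Ldha (3.51%) cannot be told from these values. Of the control points, hexokinase was low, at 83.7 ± 14.3 for Hk2, and pyruvate kinase high, at 18813 ± 983 for Pkm. In the mutants Ldha, Aldoa, Tpi1, Gapdh and Fbp2 came in the same order, at 29108, 21012, 16409.5, 15460.2 and 9094. The 5 called genes spanned 26.6 (Hk1) to 829.7 (Ldhb) by this measure in wild type. Each stood below another gene of its step, namely Hk2, Pfkl, Pkm or Ldha. Ldhb was minor only beside Ldha, since it stood above Dlat (573) and Eno3 (381).

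**Figure D4:**
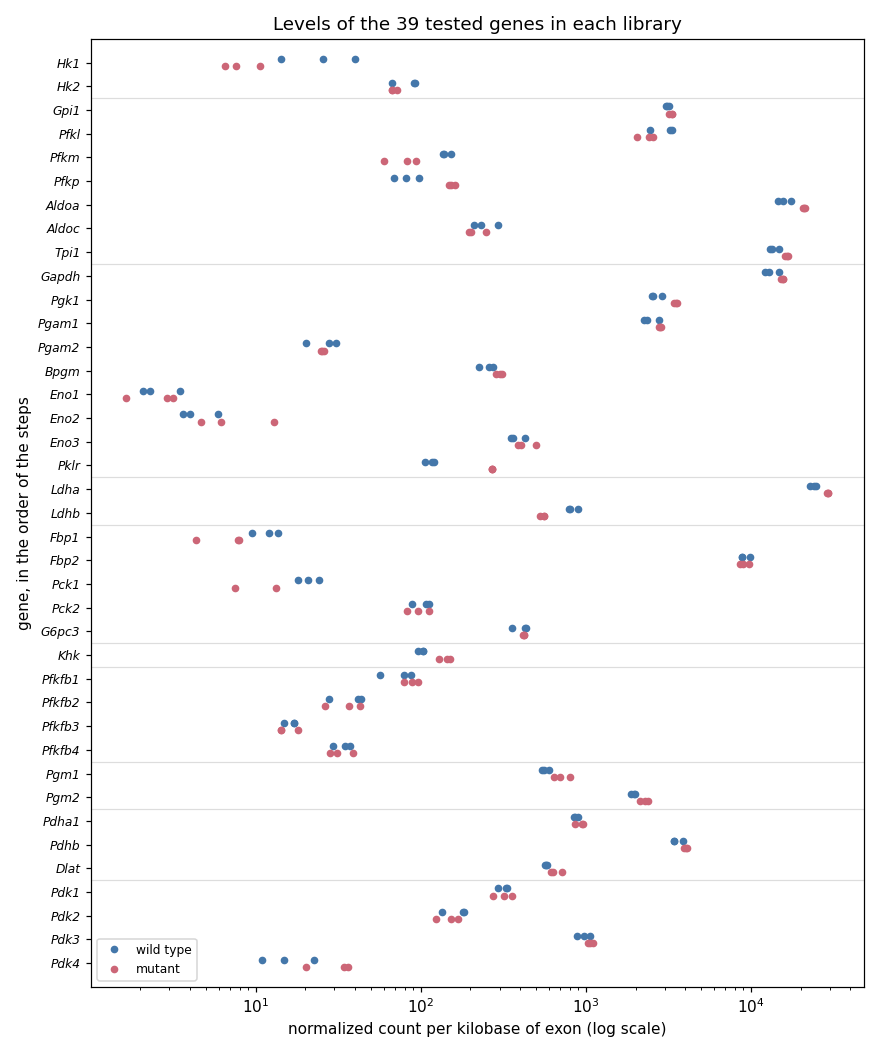
Normalized counts per kilobase of exon in each library, on a log scale, for the 39 tested genes in the order of the steps. Levels span from 1.65 (Eno1) to 29406 (Ldha), and the 0 of Pck1 in mutant 2 cannot be drawn on this axis.

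Genes next to the pathway were described from lists of neighbouring steps, carriers, the pentose phosphate pathway, glycogen, galactose and the pyruvate dehydrogenase complex, which hold 66 genes. Of 56 tested, 2 were called higher and 4 lower, beside 2.78% and 5.83% of all genes. Of the higher genes, Tigar, a fructose 2,6-bisphosphatase listed under its older name 9630033F20Rik, rose from 479, 502 and 524 to 701, 737 and 756 normalized counts (log2 fold change 0.54 ± 0.12, adjusted p = 0.00357). The glucose carrier Slc2a3 fell from 546, 515 and 608 to 180.2, 177 and 95.1, the largest log2 fold change of these lists among the called genes (-1.88 ± 0.21, adjusted p = 1.11e-05). The other 3 lower genes all belong to glycogen metabolism, of which 3 of 13 tested genes were called lower and 0 higher, with a median log2 fold change of -0.38. Gys1, glycogen synthase, was at 757 ± 115 and 483 ± 45.2 (adjusted p = 0.00323), Pygb, a glycogen phosphorylase, at 690.4 ± 179 and 366 ± 43.2 (adjusted p = 0.00148), and Phkb, a phosphorylase kinase subunit, at 783 ± 109 and 439 ± 124 (adjusted p = 0.00249). Leaving out libraries lost the call of Tigar in all cases but wild type 3 (adjusted p up to 0.0216), of Gys1 without wild type 1 or 2 or mutant 2 or 3 (up to 0.0229), of Pygb without wild type 2 or mutant 1 (up to 0.0133) and of Phkb without wild type 2, mutant 1 or mutant 2 (up to 0.0195). The pentose phosphate, galactose and pyruvate dehydrogenase lists had 0 called by edgeR of 8, 3 and 5 tested genes, with 3, 1 and 2 at an unadjusted p under 0.05. Of 16 hypoxia-responsive genes outside glycolysis 0 were called, 7 with a higher and 9 with a lower value in mutants and a median of -0.18. Likewise 0 of 12 tested regulators of sugar metabolism genes were called, with a median of -0.11. At an unadjusted p under 0.05, 4 of the hypoxia list were higher and 3 lower, and 2 and 4 of the regulators. The share of all tested genes at this unadjusted threshold is not given here. The counts at it are therefore not read as a result about any of these lists. DESeq2 called 1 gene more in each of 3 of these lists, among them Higd1a, higher in the hypoxia list, and Pdp1, a phosphatase of pyruvate dehydrogenase, lower in its complex. In edgeR the log2 fold changes of Higd1a and Pdp1 were 0.49 and -0.94, with adjusted p of 0.00902 and 0.0109.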

How the data were processed

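RNA-sequencing was performed on 500 sorted EpCAM+ cells per library, with cDNA amplified over 15 PCR cycles. The authors mapped 84-base reads to mm9 with STAR 2.5.2b and assigned the uniquely mapping ones to a UCSC gene model with featureCounts 1.5.1, and deposited the raw counts without normalization. DESeq2 1.18.1 and deepTools also stand in the submitters' processing notes. The strand setting of the counting is not given in the sources used here. No molecular identifiers are described, so PCR copies of a molecule may be counted apart.

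Counts were tested here with edgeR 4.0.16 (R 4.3.3), by the quasi-likelihood test between groups after filterByExpr and TMM scaling, and p-values were adjusted by Benjamini-Hochberg over 12501 genes. The mean normalized count of 50 in the call stands in for the RPKM criterion of the authors. The standard error of a log2 fold change is its size divided by the square root of the test's F. Levels between genes are normalized counts per kilobase of the union of exons in GENCODE vM1 on NCBIM37 (mm9), which also gave the exon overlaps, and 84-base stretches found elsewhere were searched in that genome. Alternatives were DESeq2 1.42.0, RLE scaling, library size alone, other filters and thresholds, removal of the trend with gene length by loess (span 0.5), the replicate number as a block, and omission of each library. The tests were tried on simulated data. Figures were drawn with Python 3.11.15 and matplotlib 3.10.9.

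The members, lists and tests were chosen with earlier results of these data known. Every member was accounted for. Per-library values are given for called members, for the member with the highest per-kilobase level of a step and for single-member steps of glycolysis, and other members are given by means or ranges, except that per-library values were added for Pck1, Pdk4 and Eno1 after their values were seen. Of the lists, called genes and Pkm, Hkdc1, Dak, Slc2a5 and Slc2a2 are named, besides the processed copies, and some genes of the lists are not reported here. Nothing says that libraries came from separate litters or cultures, so p-values measure the spread between these libraries. Same-group libraries differed by a chi-square of 6.30 to 17.9 per gene, more than sampling noise.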

Additional observations from a re-analysis of the deposited data

How the results depend on the processing

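Pklr, Pfkp, Hk1, Pfkm and Ldhb, the same genes, were called with DESeq2, RLE scaling, library size alone, no filter, a filter at a mean of 50 counts, an adjusted p under 0.05, the length correction and the replicate block. The block kept 2 higher and 3 lower members. Replicate numbers did not pair the libraries, since deviations from the group means correlated at 0.0096, -0.0448 and -0.0179 between same-numbered libraries and at -0.0250 to 0.0421 between others. A minimum log2 fold change of 1 left 1 higher and 1 lower member (Pklr and Hk1), and no minimum gave 6 higher. Without wild type 1 only Ldhb stayed lower, and leaving out libraries gave 1 to 3 lower members. Related genes called higher numbered 1 with library size alone, 0 at a minimum of 1, 6 with none and 1 to 3 without a library (Tigar was lost in 5 of 6). Those lower numbered 1 at a minimum of 1 and 1 to 5 without a library (1 without wild type 2).

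The median log2 fold change of the members was 0.115 with DESeq2, 0.114 with RLE, -0.0129 with library size alone, 0.135 with the filter at 50, 0.140 with the length correction and 0.0769 to 0.130 without a library. Library size alone put the median of all genes at -0.15 and 17.3% of calls higher, beside 32.3% in the main test 46.6% with the length correction and 50.8% with no minimum fold. Over all genes, against 348 higher and 729 lower, library size alone called 200 higher, a minimum of 1 called 85 and 284, no minimum 902 higher, and an adjusted p under 0.05 1178 lower. The cause was not tested.

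Signs changed for 11 uncalled members, at an adjusted p of 0.307 or more. They became positive for Fbp2 (0.0112) and Pdk1 (0.0143) with DESeq2, for the same genes with RLE (0.01002 and 0.0130), and with the length correction for Pfkfb2 (0.0507), Pck2 (0.0050), Pfkfb3 (0.0764), Pdk1 (0.140), Eno1 (0.123) and Pfkfb4 (0.0799). They became negative with library size alone for G6pc3 (-0.0625), Gpi1 (-0.0369) and Pdha1 (-0.0129). Without a library the range was -0.249 to 0.0863 for Pfkfb2, -0.196 to 0.102 for Pgam2, -0.0410 to 0.0944 for G6pc3, -0.0638 to 0.0563 for Fbp2, -0.210 to 0.0151 for Pck2, -0.105 to 0.0865 for Pdk1, -0.203 to 0.226 for Eno1 and -0.194 to 0.0399 for Pfkfb4. Without length scaling the Pfkp share was 5.39% and 12.2%, and with the longest transcript 4.32% and 9.90%, and in the wild type group both put Pfkp above Pfkm (3.07% and 3.98%). Members with few counts, such as Pck1, Fbp1, Pgam2 and Eno2, are limited by depth.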

Other observations

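Of the 56 related genes tested, 4 had a mean of at least 50 normalized counts and an adjusted p under 0.01 with a positive log2 fold change under 0.5, and they were chosen here after their values were seen. The glucose carrier Slc2a1 (0.38 ± 0.08 SE, adjusted p = 0.00206), the transaldolase Taldo1 (0.33 ± 0.07, 0.00176), the aldose mutarotase Galm (0.38 ± 0.07, 0.00146) and the phosphoglycolate phosphatase Pgp (0.45 ± 0.08, 0.000658) were higher in every mutant library than in every wild type library. Of the hypoxia list, Bnip3 (0.37 ± 0.09, 0.00548) and Higd1a (0.49 ± 0.13, 0.00902) did the same, while Vegfa lay lower (-0.16 ± 0.10, 0.216). Over all 12501 tested genes, 902 were higher and 875 lower at this adjusted p and a mean of at least 50 normalized counts. These counts have no upper limit on the fold change, and 348 and 729 of them reached a log2 fold change of 0.5 in size.

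The aldehyde reductase gene Akr1b3 and the testis forms Pgk2 and Ldhc had 0 counts in all libraries.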
